A study of Mus musculus with 40 samples.

Results

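The laminin and integrin gene families were followed in aggregates of mouse embryonic stem cells over 5 days, with and without a blocker of Wnt signalling. Members were taken by gene symbol alone: laminin alpha, beta and gamma chains (Lama, Lamb, Lamc and a digit), integrin alpha subunits (Itga) and integrin beta subunits (Itgb). The rule found 37 genes among the 26906 of the count table, made up of 11 laminin chains, 18 integrin alpha subunits and 8 integrin beta subunits. Of these, 34 passed the filter on low counts and were tested. Itgad, Itgax (both leukocyte integrin subunits) and Itgb6 (an epithelial partner of Itgav) did not pass, with at most 3 reads in any library.

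Laminins are the heterotrimers, 1 chain each of alpha, beta and gamma, that polymerise into the sheet of a basement membrane. Integrins are alpha-beta heterodimers in the plasma membrane that bind laminin, fibronectin, collagen or other ligands outside the cell and link them to actin inside. In the early mouse embryo the epiblast sits on a laminin-rich basement membrane, and cells that leave it at the primitive streak cross that membrane and then move on a fibronectin-rich matrix.

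The cells were CGR8, an embryonic stem cell line of strain 129, grown as aggregates without serum in N2B27 medium to which Activin-A, Fgf2 and KSR had been added. All 10 groups share this line and this medium, and only 1 line was used. One arm was untreated. The other was exposed from 0 to 72 h to XAV939, which inhibits tankyrase, keeps Axin stable and thereby dampens beta-catenin signalling. Each arm was sampled at days 3, 4, 5, 6 and 7 with 4 libraries per group, 40 in all, so that days 4 to 7 lie after the end of the treatment. Matrigel, a basement membrane extract rich in laminin, is named as absent in the untreated titles and is left unmentioned in the XAV939 titles, so matrigel and the drug cannot be told apart if the arms differed in both. The labels do not say that the 4 libraries of a group came from separate cultures, and p-values then measure the spread between these libraries, which may be technical. The labelled origin was checked on Pou5f1, a pluripotency factor, which stood at 788 ± 88.3 CPM (SD, n = 4) at day 3 and 4.25 ± 4.46 CPM at day 7 in untreated aggregates.

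The 40 libraries held between 30197759 and 44086019 counts (median 35737152). The unit of level is CPM, a gene's count scaled to a common library size, here with totals adjusted by trimmed means of M values (TMM). Where genes are compared with each other, the level is CPM per kilobase of summed exon length. A gene is said to have risen or fallen, or to be called, where edgeR's quasi-likelihood test gave a Benjamini-Hochberg adjusted p below 0.05 over all 16878 genes tested. Untreated library 3 of day 6 stood apart. Its levels fell with transcript length by 0.591 on the log2 scale per doubling of length against the mean of the other 3 libraries of its group, while the other 3 libraries of that group had slopes of 0.158 to 0.223 and the 36 libraries of other groups slopes of -0.152 to 0.0941. The 15 members with a mean of at least 5 CPM had a median log2 difference of -0.537 there from the other 3 libraries. Day 6 results are therefore also given without it.

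Per length, Itgb1 (ENSMUSG00000025809, GRCm38 chr8:128685654-128733200), the common partner of most laminin, collagen and fibronectin receptors, led all 37 genes with a mean of 76.0 CPM per kb over the 40 libraries. Lamc1 (ENSMUSG00000026478, chr1:153218922-153332786) followed at 21.3, Lama5 at 18.3, Lamb1 at 16.6 and Itga6, the alpha subunit of the main laminin receptor of stem cells, at 16.4 CPM per kb. Itgb5 (12.2) and Itga5 (10.9) came next, and both take part in receptors for the RGD motif of vitronectin and fibronectin. Lama1 averaged 6.23, Itga3 4.42, Itga9 3.19 and Itgav 2.93 CPM per kb. Lamb2 averaged 2.76, Itgb8 2.51 and Itga8 1.67 CPM per kb, and the other 20 tested members averaged less.

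Promoter sequences are shown for 4 members on which the results turn: Lamb1 and Itgb5, lower with XAV939, Itgb8, higher with XAV939 in the paired fit, and Lama5, which fell over time. Each runs from 250 bases before to 50 bases after the RefSeq start (GRCm38.p6), 5′ to 3′ on the strand of the gene, at chr12:31265043-31265342 (+), chr16:33829415-33829714 (+), chr12:119238227-119238526 (-) and chr2:180225810-180226109 (-). Capitals mark each GC box (GGGCGG on either strand), the core of the binding site of Sp1.
Lamb1: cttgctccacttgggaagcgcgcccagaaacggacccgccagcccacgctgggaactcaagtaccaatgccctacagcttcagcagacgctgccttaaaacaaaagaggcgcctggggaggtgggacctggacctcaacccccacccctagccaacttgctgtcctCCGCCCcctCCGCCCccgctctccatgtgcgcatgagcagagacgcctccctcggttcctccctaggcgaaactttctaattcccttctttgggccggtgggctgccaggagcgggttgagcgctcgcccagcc
Itgb5: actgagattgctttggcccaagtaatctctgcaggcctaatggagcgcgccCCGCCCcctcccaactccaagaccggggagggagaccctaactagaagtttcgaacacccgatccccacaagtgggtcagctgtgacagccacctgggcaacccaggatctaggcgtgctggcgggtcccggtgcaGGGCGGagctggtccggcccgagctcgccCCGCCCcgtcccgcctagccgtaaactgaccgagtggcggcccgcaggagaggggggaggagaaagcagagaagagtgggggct
Itgb8: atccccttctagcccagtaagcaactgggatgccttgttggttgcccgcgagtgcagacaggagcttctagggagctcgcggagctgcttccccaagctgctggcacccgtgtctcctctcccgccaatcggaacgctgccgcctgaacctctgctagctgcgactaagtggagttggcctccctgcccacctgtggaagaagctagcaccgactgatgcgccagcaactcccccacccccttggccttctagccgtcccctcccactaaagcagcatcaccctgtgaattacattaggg
Lama5: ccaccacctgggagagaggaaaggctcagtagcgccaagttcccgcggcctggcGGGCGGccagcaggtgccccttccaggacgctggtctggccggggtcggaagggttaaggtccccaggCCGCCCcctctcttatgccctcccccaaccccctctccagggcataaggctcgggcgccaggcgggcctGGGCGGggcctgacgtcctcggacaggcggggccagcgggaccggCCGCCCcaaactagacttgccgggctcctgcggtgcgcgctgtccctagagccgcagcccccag
The Lama5 window holds 4 GC boxes, Itgb5 3, Lamb1 2 and Itgb8 0. A RefSeq promoter was matched for 23 of the 37 members, and 11 of the 23 (47.8%) hold at least 1 GC box, against 35.7% of 32851 promoters of the same length. The word CTTTGAA and its variants CTTTGAT, further CTTTGTA and also the word CTTTGTT, bound by the TCF/LEF factors of beta-catenin signalling, were searched on both strands. They occur in 2 of the 23 members (8.7%), Itga1 and Itga10, in 16.9% of all promoters, and in none of the 4 windows shown. A match of letters is a description of the window and says nothing of binding.

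From day 3 to day 7 Lama5 fell and Lama1 rose, so that the most abundant laminin alpha chain per length was a different one at the end. Lama5 (ENSMUSG00000015647, GRCm38 chr2:180176373-180225859), the alpha chain of laminin-511 in the epiblast basement membrane, stood at 420, 435, 295 and 467 CPM in the 4 untreated libraries of day 3 and at 44.2, 77.9, 80.5 and 76.1 CPM at day 7. Each library of day 7 was below each library of day 3, and the level fell 5.8-fold (log2 fold change -2.54 ± 0.285 SE, edgeR adjusted p = 1.39e-09). Lama1 (ENSMUSG00000032796, chr17:67697259-67822647), the alpha chain of laminin-111, an early laminin of the embryo, stood at 12.3, 13.6, 15.3 and 13.4 CPM at day 3 and at 124, 110, 124 and 132 CPM at day 7, a rise of 8.98-fold (3.17 ± 0.27 SE, adjusted p = 2.63e-12). At day 4 Lama5 was still at 343 ± 70.2 CPM and Lama1 at 14.2 ± 4.11 CPM. Both changed from day 3 to day 5 and again from day 5 to day 7. By day 5 Lama1 had risen by 2.09 ± 0.26 and Lama5 fell by 1.01 on the log2 scale (edgeR adjusted p = 2.68e-08 and 0.00203).

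The 2 genes changed in the same directions in the XAV939 arm. Lama5 went from 432, 426, 286 and 281 CPM to 45, 55.8, 64.4 and 47.9 CPM (6.69-fold lower, adjusted p = 2.78e-10), and Lama1 from 10.1, 16.1, 14.6 and 10.1 CPM to 98.8, 120, 106 and 136 CPM (9.03-fold higher, adjusted p = 2.36e-12). Again the libraries of the 2 days did not overlap for either gene. Expressed as a share of the summed alpha chain level per kb, Lama5 made up 91.7% ± 1.8 (SD, n = 4) at day 3, 46.4% ± 5.13 at day 6 and 30.2% ± 6.58 at day 7 in untreated aggregates. Lama1 made up 3.78% ± 1.11, 50.2% ± 4.26 and 62.8% ± 4.14 on the same days. With XAV939 the Lama1 share reached 59.7% ± 4.02 at day 6 and 67.8% ± 4.5 at day 7. The summed alpha chain level itself went from 38.6 ± 6.56 to 20.1 ± 1.38 CPM per kb in the untreated arm, so the shares describe a smaller total.

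**Figure D1:**
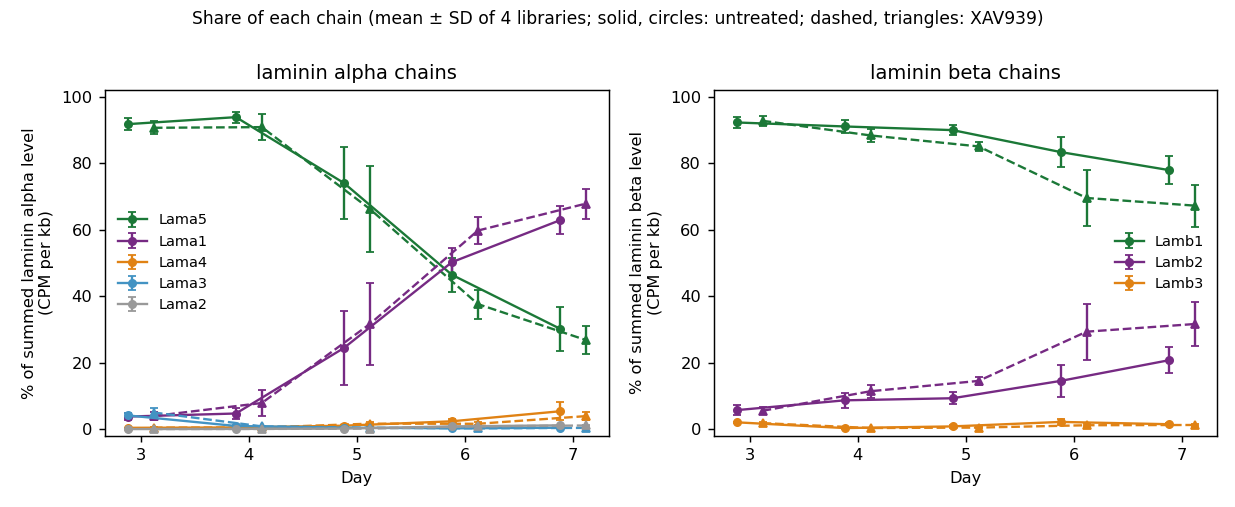
Share of each laminin alpha chain (left) and beta chain (right) in the summed level of its class, in percent of CPM per kb, against the day; points are means of 4 libraries, bars are SD, solid lines are untreated and dashed lines XAV939. The Lama1 line is above the Lama5 line from day 6 on in both arms, and the Lamb1 share at day 7 is 77.9% untreated and 67.2% with XAV939.

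The other alpha chains moved in opposite directions. Lama3, the alpha chain of laminin-332 in epithelial anchoring sites, was at 16.4, 18.6, 15.8 and 16.2 CPM in the untreated libraries of day 3 and at 1.03, 0.951, 0.986 and 0.647 CPM at day 7, an 18.5-fold fall (adjusted p = 1.33e-12). At day 4 its mean was 3.1 ± 0.876 CPM. Beside it, the summed level of 7 surface ectoderm markers was 765 to 908 CPM at day 3, 269 to 360 CPM at day 4 and 418 to 876 CPM at day 7 without treatment, and their part was not tested. The list includes the general epithelial genes Krt8, Krt18 and Epcam, so its sum alone does not show surface ectoderm. At day 3 the summed epiblast and pluripotency markers (6 genes) were 2920 to 3560 CPM untreated. Lama4, the alpha chain of vascular and mesenchymal laminins, rose 7.05-fold from 1.82 ± 0.387 to 12.8 ± 5.74 CPM (adjusted p = 2.17e-10), with 21.3 CPM in library 1 and 8.61 to 11.1 CPM in the other 3. Lama2, the muscle and Schwann cell alpha chain, rose from 0.11 ± 0.0618 to 3.75 ± 0.687 CPM (adjusted p = 2.81e-12). Endothelial markers (7 genes, summed) were also higher at day 7 untreated, at 27.1 to 40.6 CPM at day 3 and 45.9 to 169 CPM at day 7. Emcn was at 0 in all 4 untreated libraries of day 3. With XAV939 the sums overlapped, at 25.1 to 34.6 CPM at day 3 and 28.0 to 39.5 CPM at day 7. Lama4 also rose in that arm, from 1.86 ± 0.384 to 8.08 ± 1.85 CPM. The part of these markers in the result was not tested. In bulk RNA, a change in the number of cells of a type and a change of RNA per cell cannot be told apart.

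Among beta chains, Lamb1 held the largest share and Lamb2 gained. Lamb2, the beta chain of synaptic and kidney basement membranes, rose from 9.24, 8.01, 4.28 and 7.61 CPM at day 3 to 19.8, 31.8, 22.9 and 29.1 CPM at day 7 without treatment (3.56-fold, adjusted p = 8.62e-08), and 4.65-fold with XAV939 (adjusted p = 2.11e-09). Lamb1 was at 190 ± 6.52 and 159 ± 18 CPM at days 3 and 7 in untreated aggregates, a difference of -0.258 ± 0.153 on the log2 scale that did not pass (adjusted p = 0.134). In the XAV939 arm it fell 1.64-fold, from 177 ± 17 to 108 ± 20.1 CPM (adjusted p = 0.000112). From day 5 to day 7 it was 1.3-fold lower in each arm (adjusted p = 0.0461 untreated and 0.0472 with XAV939). Those calls were lost in 6 and 4 of the 8 fits that each left out 1 library, with adjusted p up to 0.169 without untreated library 1 of day 5 and 0.185 without XAV939 library 1 of day 5. Lamb3, the beta chain of laminin-332, averaged 2.82 ± 0.187 CPM at day 3, 0.509 ± 0.346 CPM at day 4 and 2.82 ± 0.943 CPM at day 6 in untreated aggregates. Its fall with XAV939 from day 3 to day 7 (adjusted p = 0.0441) was lost without XAV939 library 1 or 2 of day 3 or library 1, 3 or 4 of day 7, where the adjusted p reached 0.159.

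Lamc1, the gamma chain of most laminins, held 93.4% to 99.5% of the gamma chain level per kb in each of the 40 libraries. Its level was 191 ± 23.4 CPM at day 3 and 169 ± 6.95 CPM at day 7 in untreated aggregates and its change did not pass in either arm (adjusted p = 0.446 and 0.237). Lamc3 was near 0 until day 6, with a mean of 0.145 ± 0.154 CPM untreated, and reached 1.75 ± 0.636 CPM at day 7.

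**Figure D2:**
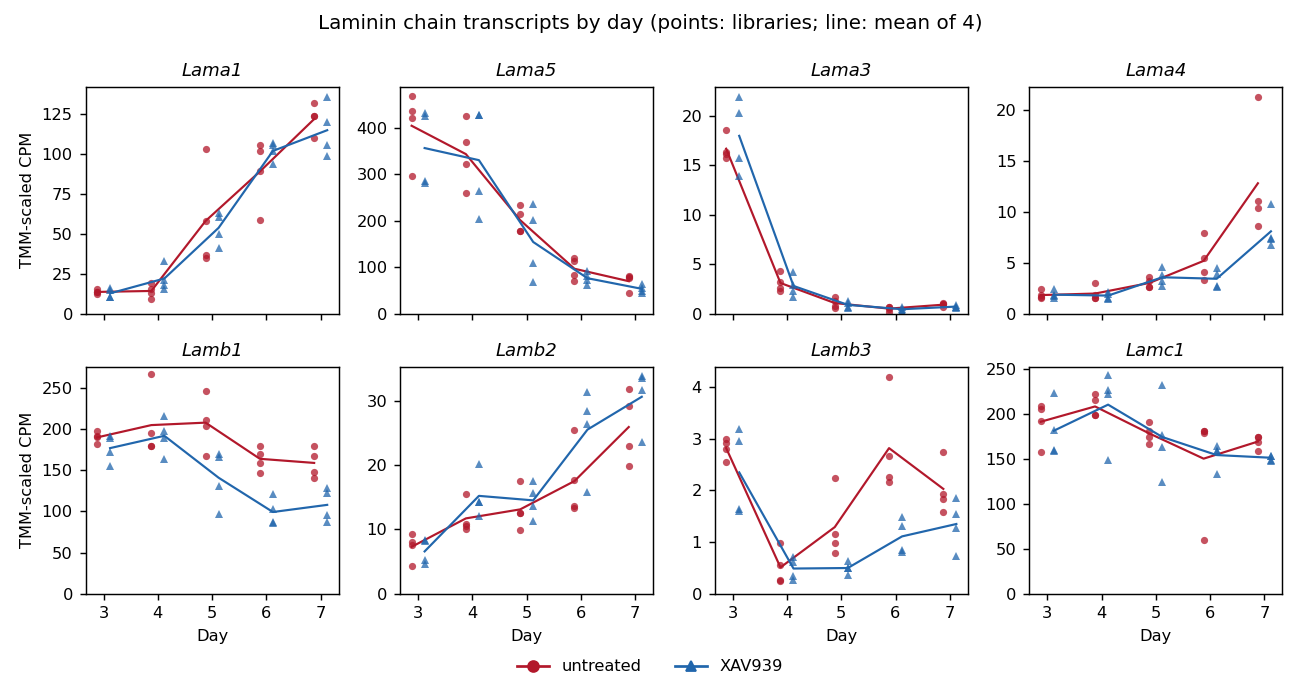
Levels of 8 laminin chains in TMM-scaled CPM against the day; each point is a library (red circles untreated, blue triangles XAV939) and lines join the means of 4. Lama5 and Lama1 change places in both arms, Lama3 drops after day 3, and Lamb1 of the XAV939 arm lies below the untreated arm at day 6.

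Integrin beta subunits were led by Itgb1 at every day. It was at 275, 279, 368 and 322 CPM in the untreated libraries of day 3 and at 396, 360, 380 and 322 CPM at day 7, and the groups overlapped (log2 fold change 0.229 ± 0.12, adjusted p = 0.091). Per kb it held 87.9% ± 3 of the summed beta subunit level at day 3, 77.5% ± 2.86 at day 4 and 84.4% ± 0.85 at day 7 in untreated aggregates. Itgb8, which pairs with Itgav and activates latent TGF-beta, rose 7.86-fold without treatment, from 5.25, 3.75, 10.5 and 8.04 CPM to 71.5, 53.8, 37 and 54.3 CPM (adjusted p = 1.2e-07). With XAV939 it rose 10.1-fold, from 11, 3.73, 8.43 and 10.2 CPM to 90.9, 79.2, 70 and 97 CPM (adjusted p = 1.47e-08). In both arms the lowest library of day 7 was above the highest of day 3. Summed neural progenitor markers (6 genes) were 262 to 291 CPM at day 3 and 237 to 481 CPM at day 7 untreated, and 253 to 295 and 484 to 759 CPM with XAV939, and their part in this rise was not tested.

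Itgb5, the beta subunit of the vitronectin receptor with Itgav, was highest at day 4. Its 4 untreated libraries held 35.2, 23.6, 20.9 and 21.5 CPM at day 3, 71.8, 54.9, 74.7 and 63.5 CPM at day 4 and 32.7, 41.2, 48.8 and 34.7 CPM at day 7. It rose from day 3 to day 5 without treatment (0.941 ± 0.233, adjusted p = 0.00093) and did not pass with XAV939 (adjusted p = 0.514), a difference that was not itself tested. From day 3 to day 7 Itgb5 rose 1.56-fold without treatment (adjusted p = 0.0159), a call lost without untreated library 3 or 4 of day 3 or untreated library 3 of day 7 (adjusted p up to 0.0658). Itgb4, the hemidesmosome subunit that binds laminin-332 with Itga6, fell 6.62-fold from 6.73 ± 2.09 to 1.02 ± 0.291 CPM (adjusted p = 2.43e-07) and 7.58-fold with XAV939 (adjusted p = 1.07e-07). Itgb3, the platelet and vascular partner of Itgav, averaged 0.935 ± 0.193 CPM at day 3 and 1.28 ± 0.689 CPM at day 7 untreated and did not pass (adjusted p = 0.308).

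Of the laminin-binding alpha subunits, Itga6 and Itga3 did not pass between days 3 and 7 in either arm. Itga6 (ENSMUSG00000027111, chr2:71745616-71858416) was at 156, 173, 120 and 144 CPM at day 3 and 183, 211, 152 and 185 CPM at day 7 in untreated aggregates, overlapping groups (adjusted p = 0.142). Itga3, a receptor subunit for laminin-332 and laminin-511, was at 41.8, 35.2, 25.4 and 30.2 CPM at day 3 and 30.9, 25.2, 18.6 and 29.1 CPM at day 7 (adjusted p = 0.19). Its mean was 33.2 ± 7 CPM at day 3, 37.3 ± 5.88 CPM at day 4, 15.8 ± 2.19 CPM at day 5 and 25.9 ± 5.47 CPM at day 7. It fell from day 3 to day 5 (-1.07 ± 0.241, adjusted p = 0.000341) and rose from day 5 to day 7 (0.713 ± 0.24, adjusted p = 0.0178), the latter lost without untreated library 4 of day 5 or library 1 or 4 of day 7 (adjusted p up to 0.0633). Itga7, the muscle laminin receptor, was low and did not pass untreated (0.309 ± 0.0585 CPM at day 7). With XAV939 its 4 libraries of day 7 held 1.91, 0.492, 0.281 and 0.252 CPM, and the log2 rise of 1.99 from day 3 (adjusted p = 0.000368) came down to 0.898 without library 1 (adjusted p = 0.0434).

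Among subunits of RGD-binding receptors, Itga8 peaked at day 5 and Itga5 did not. Itga8, which pairs with Itgb1 and binds nephronectin and fibronectin, was at 0.791, 0.701, 1.64 and 1.35 CPM in the untreated libraries of day 3, at 42, 43.1, 38.8 and 37.8 CPM at day 5 and at 10.4, 7.39, 15 and 7.59 CPM at day 7. It rose from day 3 to day 5 and fell from day 5 to day 7 in both arms, with no overlap between those days (adjusted p from 6.54e-10 to 0.000741 over the 4 tests). Itga8 remained above its start and was called higher at day 7 than at day 3 in both arms. Its mean went from 1.12 ± 0.45 to 10.1 ± 3.57 CPM untreated and from 1.04 ± 0.494 to 6.72 ± 1.16 CPM with XAV939. At day 4 the untreated libraries held 42.1, 6.73, 3.57 and 5.13 CPM, so that library 1 was already at the level of day 5. Itga5, the fibronectin receptor subunit, rose 1.6-fold from 51.3 ± 4.99 CPM at day 3 to 82.1 ± 8.17 CPM at day 7 untreated (adjusted p = 0.0195, and 0.0554 without untreated library 3 of day 3), and did not pass with XAV939 (46.2 ± 2.69 to 60.4 ± 8.56 CPM, adjusted p = 0.174). Itgav, the shared alpha subunit of the Itgb5 and Itgb8 receptors, went from 29.7, 36.4, 31.8 and 33.1 CPM to 47.3, 45.2, 43.1 and 42.2 CPM untreated, with no overlap. It rose 1.36-fold there and 1.32-fold with XAV939 (adjusted p = 0.00273 and 0.00589).

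Itga9 and the collagen receptor subunits followed different courses. Itga9, a receptor subunit for tenascin-C and for the EIIIA segment of fibronectin, first fell from 15.9 ± 2.33 CPM at day 3 to 7.72 ± 2.09 CPM at day 5 and then stood at 108, 54.7, 69.2 and 61.1 CPM at day 7 in the untreated arm (4.59-fold above day 3, adjusted p = 3.52e-07). Itga1, a collagen and laminin receptor subunit, stood at 1.14 ± 0.277 CPM at day 3, 14.4 ± 4.52 CPM at day 4, 11.6 ± 0.939 CPM at day 5 and 2.84 ± 1.86 CPM at day 7. Its gene overlaps Pelo on the same strand, and reads of the 2 genes may not be told apart. Its rise from day 3 to day 7 untreated (adjusted p = 0.00327) rested on library 1 of day 7, at 5.54 CPM, without which the adjusted p was 0.0761. Itga2 and Itga11, collagen receptor subunits, were at 0.0338 ± 0.0339 and 0.0554 ± 0.0242 CPM at day 3 and reached 3.25 ± 0.795 and 2.59 ± 0.957 CPM at day 7 untreated (adjusted p = 1.38e-11 and 7.82e-10). Itga2 was at 1.06 ± 0.344 CPM by day 4 and had risen by day 5 (adjusted p = 1.33e-08), while Itga11 did not pass from day 3 to day 5 (adjusted p = 0.0743). Itga10, a further collagen receptor subunit, rose from 0.969 ± 0.364 to 1.6 ± 0.103 CPM at day 5 (adjusted p = 0.0252, lost without untreated library 1 or 4 of day 3 or library 3 of day 5, up to 0.105) and stood at 2.23 ± 0.0678 CPM at day 7 untreated (adjusted p = 0.000216 against day 3), and its gene overlaps Gm42957. Itga4, which binds fibronectin and Vcam1, rose from 2.42 ± 0.566 to 4.78 ± 0.791 CPM untreated (adjusted p = 0.00482) and from 1.97 ± 0.459 to 5.1 ± 0.303 CPM with XAV939 (adjusted p = 0.000181). Itga2b, the platelet fibrinogen receptor subunit, averaged 1.02 ± 0.405 and 1.29 ± 0.152 CPM and did not pass (adjusted p = 0.255).

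The leukocyte subunits were low, and 4 of the 5 tested fell. Itgae, Itgam, Itgb2 and Itgb7 had means of 1.26 to 2.84 CPM at day 3 and 0.147 to 0.378 CPM at day 7 in untreated aggregates. All 4 fell in both arms, where 32.6% of all genes fell untreated and 34.1% with XAV939. Itgal, the alpha subunit of the lymphocyte receptor for Icam1, instead rose from 0.377 ± 0.101 to 0.695 ± 0.121 CPM untreated (adjusted p = 0.0355). That call was lost without untreated library 1, 2 or 3 of day 3 or library 1 or 3 of day 7 (adjusted p up to 0.0966), and with XAV939 Itgal did not pass (adjusted p = 0.691). The gene of Itgae overlaps Haspin on the opposite strand, and whether counting used the strand was not given in the sources used here. Summed, the 7 leukocyte markers held 11.6 to 16 CPM at day 3 and 1.94 to 2.59 CPM at day 7, with Cd52 at 0 in all untreated libraries of day 7, and their part was not tested.

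**Figure D3:**
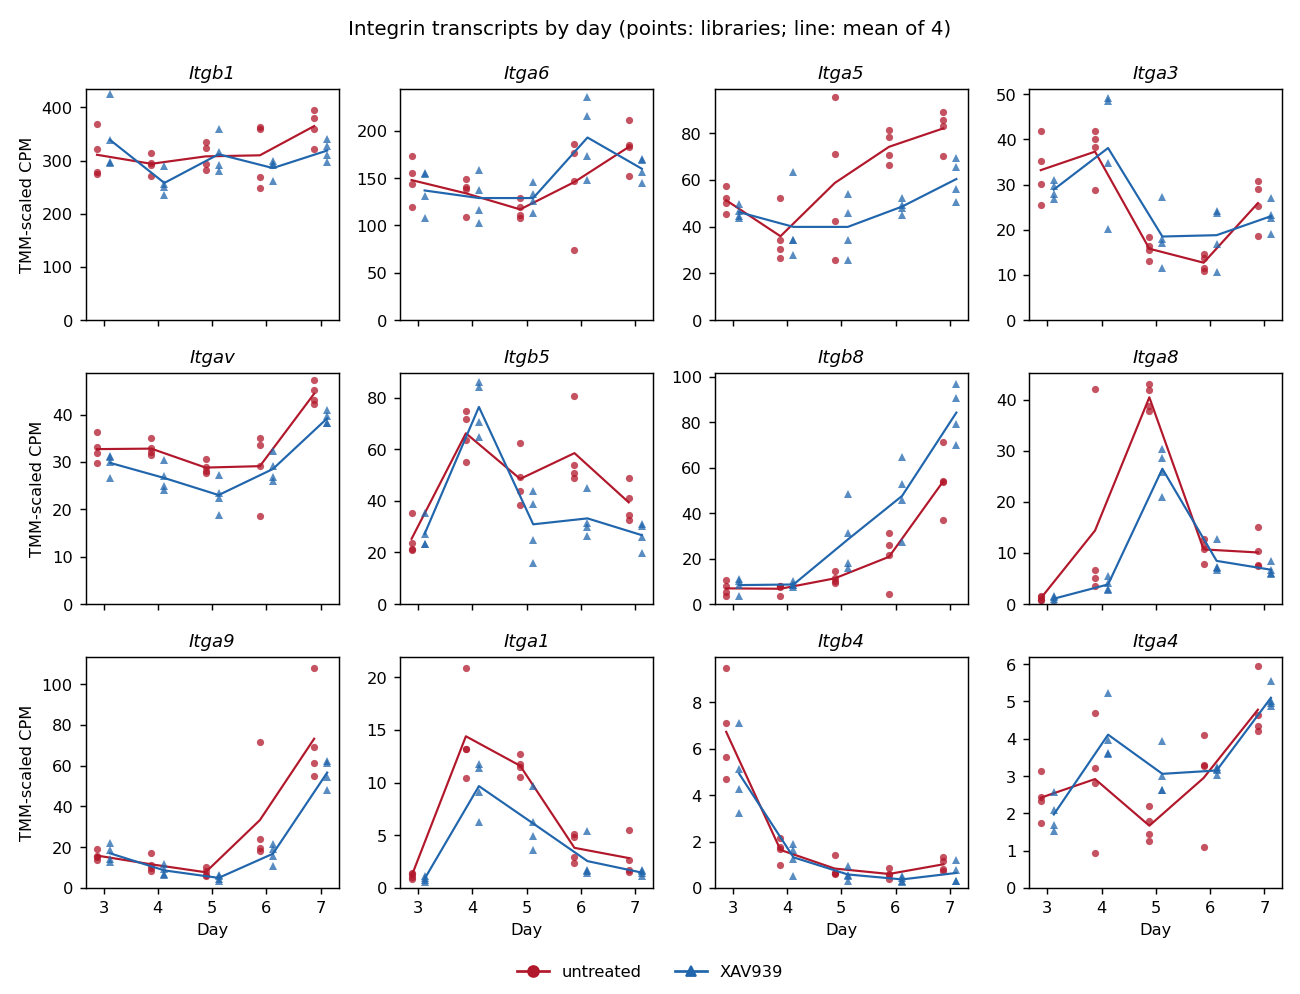
Levels of 12 integrin subunits in TMM-scaled CPM against the day; each point is a library (red circles untreated, blue triangles XAV939) and lines join the means of 4. Itga8 and Itga1 peak at days 4 to 5, Itgb8 and Itga9 are highest at day 7, Itgb4 drops after day 3, and untreated library 3 of day 6 is the lowest of its group for Itga6, Itgav and Itgb8.

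Counted over the families, 17 members were higher and 8 lower at day 7 than at day 3 in untreated aggregates, against 34.7% of all genes tested called higher and 32.6% lower. In the XAV939 arm 14 were higher and 10 lower, against 36.8% and 34.1% of all genes. The members' median log2 change was 0.446 untreated and 0.2 with XAV939, beside 0.0251 and 0.0413 over all genes tested. From day 3 to day 5, 9 members were higher and 11 lower untreated (27.9% and 24.7% of all genes) and 10 and 12 with XAV939 (31.0% and 27.0%). From day 5 to day 7, 16 were higher and 6 lower untreated (19.1% and 18.5%) and 12 and 6 with XAV939 (18.2% and 18.4%). The untreated and XAV939 arms are separate libraries, and no test was made of whether the shares differ from those of all genes.

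The other question of the design was whether these genes differed between the arms on each day. At day 3, the end of the treatment, no member was called, against 0.00592% of all genes. There were 0 members at an unadjusted p below 0.05 in edgeR (1.83% of all genes) and 0 called by DESeq2 (0.00593%). At day 4 no member was called either, against 0.0178% of all genes. At an unadjusted p below 0.05 there were 4 members at day 4, against 5.59% of all genes. DESeq2 called 1, against 0.352% of all genes. It was Itga8 (DESeq2 log2 fold change -1.89, DESeq2 adjusted p = 0.0174), whose untreated mean of 14.4 ± 18.5 CPM rests on library 1. Where a fit held only the libraries of the 2 groups compared, no gene of the table was called between the arms on any day (0.0% of all genes), so every call between the arms below rests on the spread estimated over all 40 libraries. Over the 5 days together an F test called 4 members, Lamb1, Lamb3, Itgb5 and Itgb8, against 5.8% of all genes.

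Libraries of 1 day and 1 number deviated together across the arms. A fit with a block for the number within each day is therefore given for comparisons between the arms where it changed a call. With that replicate block the F test called 8 members, against 13.4% of all genes: the 4 above and, among others, Itga5, Lama4 and Lamb2.

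Lamb1 (ENSMUSG00000002900, chr12:31265234-31329644) was lower with XAV939 at days 5 and 6. At day 5 its untreated libraries held 247, 204, 211 and 168 CPM and its XAV939 libraries 170, 131, 166 and 96.3 CPM. Each XAV939 library was below the untreated library of its number, while the groups as a whole overlapped slightly. The level was 1.47-fold lower (log2 fold change -0.559 ± 0.153, adjusted p = 0.0415), and it was the 1 member called lower at that day, against 1.43% of all genes called lower and 0.912% higher. The call was lost without untreated library 1, 2 or 3 or XAV939 library 2 or 4 of day 5 (adjusted p up to 0.271), and held with the block (adjusted p = 0.001). At day 6 the untreated libraries held 170, 180, 159 and 147 CPM and the XAV939 libraries 87.4, 103, 121 and 86.4 CPM, with no overlap (1.65-fold lower, -0.725 ± 0.154, adjusted p = 0.00415), and this call held in all 8 fits that left out 1 library but not in the fit on the compared libraries alone (adjusted p = 0.109). At day 7 the groups again did not overlap (141 to 180 against 86.7 to 128 CPM), with the same log2 difference as at day 5, -0.559 ± 0.153, and an adjusted p of 0.125, or 0.00435 with the block.

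The make-up of the beta chains differed as well, a description without a test. Lamb1 held 83.3% ± 4.52 of the beta chain level per kb at day 6 untreated and 69.5% ± 8.5 with XAV939, and 77.9% ± 4.12 and 67.2% ± 6.33 at day 7. Lamb2 was higher with XAV939 in 4 of 4 pairs on each of days 5, 6 and 7, although library 3 of day 5 reads 17.5 CPM in both arms after rounding. At day 6 it was at 13.7, 17.7, 13.3 and 25.4 CPM untreated and 26.3, 28.4, 15.8 and 31.4 CPM with XAV939, overlapping groups with a log2 difference of 0.539 ± 0.243 (adjusted p = 0.258), which passed with the block (adjusted p = 0.0155). The levels of Lamc1, the gamma chain that partners both, were 150 ± 60.1 and 154 ± 13.9 CPM at day 6 (adjusted p = 0.959). Its untreated libraries held 181, 181, 59.8 and 178 CPM, the low value being that of library 3, which holds the length trend.

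Lamb3 was also lower with XAV939 at day 6, at a low level. It held 2.27, 2.66, 4.2 and 2.17 CPM untreated and 1.31, 1.49, 0.837 and 0.807 CPM with XAV939 (2.53-fold lower, -1.34 ± 0.36, adjusted p = 0.0236). Its gene overlaps Hsd11b1 and G0s2 on the opposite strand. The groups did not overlap. The call was lost without untreated library 3 or XAV939 library 1, 3 or 4 of day 6 (adjusted p up to 0.132). With the block Lamb3 passed (adjusted p = 0.0161). Lama3 was at 0.504 ± 0.225 and 0.444 ± 0.21 CPM and did not pass (adjusted p = 0.855).

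Epithelial markers were lower with XAV939 as well. The summed surface ectoderm markers, of which Krt8, Krt18 and Epcam make up most, were 341 to 1140 CPM untreated and 178 to 302 CPM with XAV939 at day 6, with Krt14 at 0 in both groups, and 207 to 359 against 87.2 to 153 CPM at day 5. Endoderm markers (6 genes) were 684 to 1610 against 376 to 539 CPM at day 6, all 6 detected in both arms. Paraxial mesoderm markers (6 genes) were 16.1 to 356 against 7.3 to 15.9 CPM at day 5, and 319 to 611 against 167 to 390 CPM at day 6. Epiblast and pluripotency markers (6 genes) were 264 to 521 against 153 to 237 CPM at day 6. Neuron markers (6 genes) went the other way, at 38.0 to 64.1 against 67.3 to 315 CPM at day 6, as did the neural progenitor markers given below. The part of any of these in the difference was not tested.

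Itgb5 (ENSMUSG00000022817, chr16:33829665-33949338) was lower with XAV939 at day 6, and at days 5 and 7 with the block only. At day 6 its untreated libraries held 53.9, 48.8, 80.8 and 50.6 CPM and its XAV939 libraries 26.2, 29.8, 45.1 and 31.6 CPM (1.76-fold lower, -0.819 ± 0.232, adjusted p = 0.0347). The groups did not overlap, and Itgb5 was among 4 members called lower at day 6, as were Lamb1 and Lamb3, with none called higher, against 2.95% and 1.39% of all genes. There were 14 members at an unadjusted p below 0.05 at day 6, against 15.7% of all genes. DESeq2 called 6, with Itgb8 higher, against 5.73% of all genes. The high value of 80.8 CPM belongs to untreated library 3, which holds the length trend. The call was lost without that library, and also without XAV939 library 1, 2 or 4 (adjusted p up to 0.211). At day 5 all 4 pairs were lower, at 62.5, 49.4, 43.8 and 38.4 against 43.8, 25, 38.7 and 15.9 CPM (adjusted p = 0.154, and 0.00163 with the block), and at day 7 the block gave 0.0258 against 0.447 without it. At day 3 Itgb5 averaged 25.3 ± 6.71 CPM untreated and 27.2 ± 5.65 CPM with XAV939, and it averaged 66.2 ± 8.92 CPM untreated and 76.4 ± 10.3 CPM with XAV939 at day 4.

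Itgb8 (ENSMUSG00000025321, chr12:119158022-119238802) had the largest positive log2 difference among the 34 tested members at days 5 and 6. On these days its difference did not pass in the main edgeR fit and passed with the block, and DESeq2 called it higher on both (adjusted p = 0.0269 and 0.0402). Without the block, edgeR with offsets for gene length also called it higher on both days. So did some fits that left out libraries, at day 5 or day 6. At day 5 its XAV939 libraries held 18.2, 31.3, 15.8 and 48.4 CPM and its untreated libraries 10.3, 9.09, 14.4 and 11.5 CPM, with no overlap (log2 difference 1.33 ± 0.393, adjusted p = 0.0631, and 0.0213 with the block). At day 6 the values were 64.6, 45.8, 27.2 and 52.8 against 26.1, 21.5, 4.52 and 31.2 CPM (1.19 ± 0.388, adjusted p = 0.0738, and 0.00578 with the block), where 4.52 CPM belongs to the library with the length trend, without which the log2 difference was 0.866 (adjusted p = 0.253). It was higher in 4 of 4 pairs on each of days 5, 6 and 7. Day 7 did not pass either way (0.638 ± 0.382, adjusted p = 0.837, and 0.313 with the block). Beside it, the summed neural progenitor markers were 166 to 229 CPM untreated and 226 to 355 CPM with XAV939 at day 5, and 115 to 275 against 272 to 574 CPM at day 6. Sox1 alone was at 26.7 ± 8.01 and 75.6 ± 18.5 CPM at day 6. Their part was not tested.

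**Figure D4:**
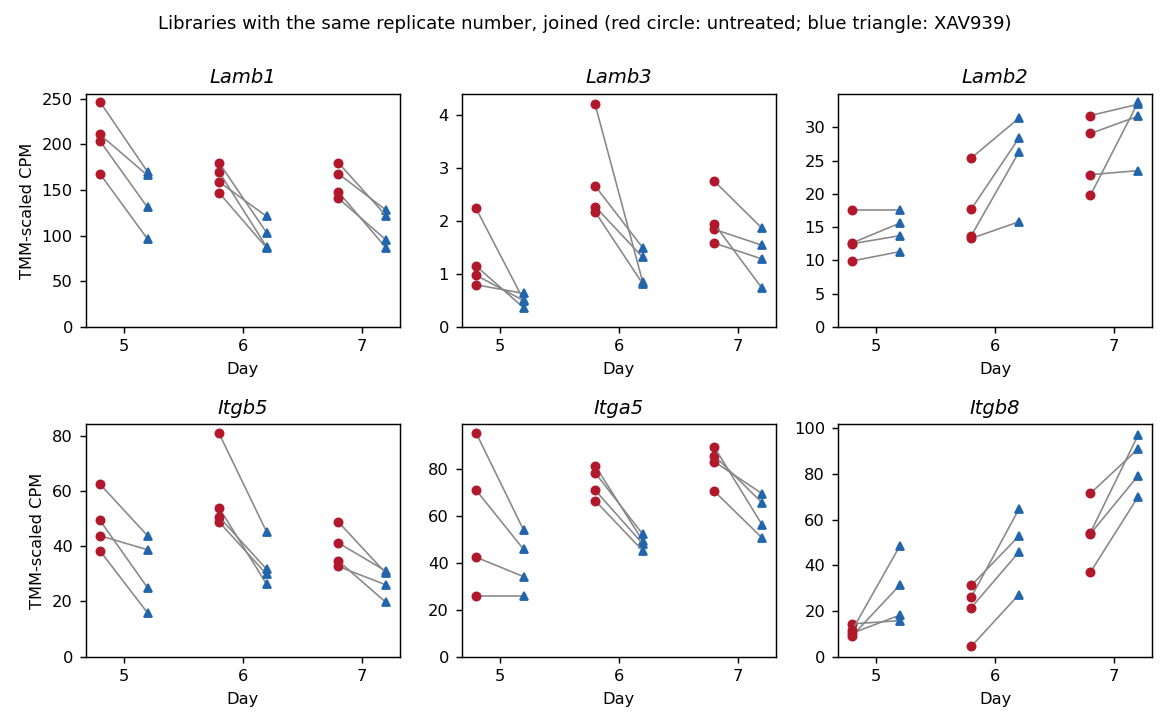
Levels in TMM-scaled CPM at days 5, 6 and 7 for 6 members, with lines joining the untreated library (red circle) and the XAV939 library (blue triangle) of the same number. The lines of Lamb1, Lamb3, Itgb5 and Itga5 go down and those of Itgb8 and Lamb2 go up, except that the line of library 4 of Itga5 at day 5 is flat at 25.8 CPM and that of library 3 of Lamb2 at 17.5 CPM.

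With the block more members passed. At day 5 it called 1 member higher, Itgb8, and 4 lower, Itga5, Itgb5, Lamb1 and Lamb3, against 2.93% and 4.41% of all genes. At day 6 it called 4 higher, Itga6, Itgam, Itgb8 and Lamb2, and 6 lower, among them Itga5, Itgb5, Lama4, Lamb1 and Lamb3, against 4.34% and 5.9% of all genes. At day 7 it called none higher and 4 lower, among them Itga5, Itgb5 and Lamb1, against 0.942% and 1.32%. Without the block no member was called at day 7, against 0.00592% of all genes. There were 7 members at an unadjusted p below 0.05 (7.86% of all genes) and 0 called by DESeq2 (0.598%). For Itga5 the block narrowed the error: at day 6 it was at 81.3, 70.9, 78.3 and 66.4 CPM untreated and 49.3, 48, 52.1 and 45.1 CPM with XAV939, with no overlap, a log2 difference of -0.61 ± 0.255 (adjusted p = 0.207), and with the block -0.608 ± 0.105 (adjusted p = 0.000825).

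The 4 members called higher at day 6 with the block were also fitted without untreated library 3 and its pair. Itgb8, Itgam and Lamb2 were called there too, whereas Itga6 was not and Itga3 was. Itgam was low at day 6, at 0.129 to 0.314 CPM untreated and 0.243 to 0.703 CPM with XAV939, overlapping groups. The gene of Itgam overlaps Gm49368 on the same strand, and reads of these genes may not be told apart. The untreated libraries of Itga6 held 147, 186, 73.9 and 177 CPM and the XAV939 libraries 173, 236, 148 and 216 CPM. Lower members without that pair included Itga1, Itga5, Itgb5, Lama4 and Lamb1. Without the block and without untreated library 3 the members called at day 6 included Itga9 and Lamb1, both lower. Of all genes, 2.58% were called there in either direction.

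**Figure D5:**
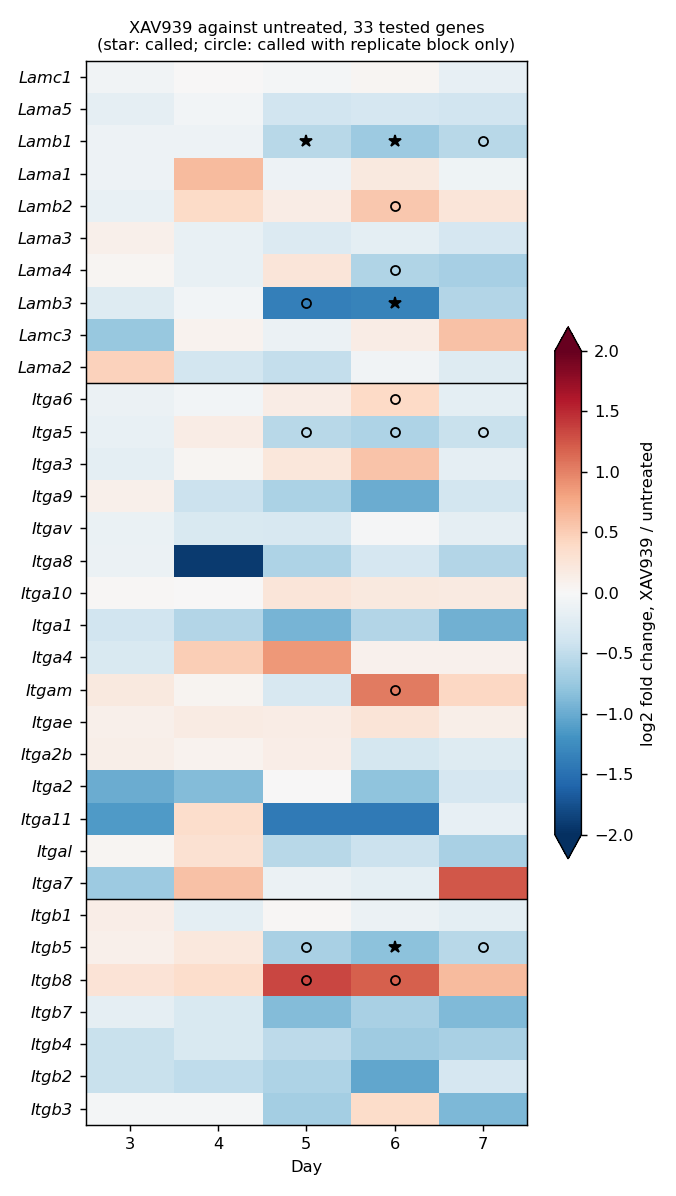
Log2 fold change of XAV939 against untreated for 33 tested members (rows: laminins, integrin alpha and integrin beta subunits, each ordered by level per kb) at days 3 to 7 (columns); red is higher and blue lower with XAV939, stars mark calls and open circles calls with the replicate block only. The columns of days 3 and 4 hold no mark, Lamb1 is marked at days 5, 6 and 7, and Itgb8 is the reddest row at days 5 and 6.

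Whether the difference between the arms itself changed over time was tested as an interaction. From day 3 to day 7 no member was called, against 0.0% of all genes, with 2 members at an unadjusted p below 0.05 (Lamb1 and Itga7), 0 called by DESeq2 and 0 with the block. From day 5 to day 7 no member was called, against 0.0118% of all genes, with 2 at an unadjusted p below 0.05 (Lama4 and Itga7), 0 by DESeq2 and 0 with the block. Of all genes, 4.25% and 5.37% had an unadjusted p below 0.05 from day 3 to 7 and from day 5 to 7. DESeq2 called 0.00593% and 0.0591% of all genes, and the block 0.0533% and 0.118%. Changes of the effect to or from day 6 were not tested. The members' median log2 difference between the arms was -0.107 at day 3, -0.0121 at day 4, -0.323 at day 5, -0.269 at day 6 and -0.3 at day 7, beside medians of all genes tested between -0.0168 and 0.0137.

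The genes that surround the laminins and integrins were counted by 4 lists. Of the 15 basement membrane components other than laminins that were tested, of 17 in the table, 12 rose and 3 fell from day 3 to day 7 in both arms, with a median log2 change of 2.01 untreated and 2.34 with XAV939, beside the medians of all genes given above. Of all genes, 34.7% rose and 32.6% fell untreated, and 36.8% rose and 34.1% fell with XAV939. Col4a1 and Col4a2, the network-forming collagen IV chains, rose from 33.9 ± 5.07 to 191 ± 10.2 CPM and from 9.64 ± 1 to 89.1 ± 5.69 CPM untreated (adjusted p = 6.68e-12 and 1.2e-14). Frem1, of the complex that anchors epidermal basement membranes, rose from 3.9 ± 1.22 to 112 ± 17.4 CPM (adjusted p = 1.46e-15). Nid2, which links laminin to collagen IV, Hspg2 (perlecan) and Col18a1 were the 3 that fell. Between the arms no gene of the list was called at day 5 or day 6. At an unadjusted p below 0.05 there were 3 and 5, DESeq2 called 1 on each day (Nid2 lower, then Frem2 higher), and the block called 3 and 5. The shares of all genes on these days were 12.5% and 15.7% at the unadjusted p, 3.64% and 5.73% by DESeq2, and 7.35% and 10.2% with the block.

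The next list held 11 genes of laminin receptors that are not integrins and of their partners. Sgcb, Sgce, Dmd and Utrn are in it as partners of dystroglycan and are not laminin receptors themselves. Untreated, 6 rose and 3 fell, against 34.7% and 32.6% of all genes. With XAV939, 6 rose and 2 fell, against 36.8% and 34.1%. Their median log2 change was 0.413 untreated and 0.321 with XAV939. Sgce and Sgcb, sarcoglycans of the dystroglycan complex, rose (2.73 ± 0.164 and 2.43 ± 0.152, log2, untreated) and Sdc4, a syndecan of focal adhesions, fell from 113 ± 24.4 to 15.3 ± 1.49 CPM. Dag1, dystroglycan itself, was at 195 ± 24.6 and 185 ± 17.1 CPM and did not pass (adjusted p = 0.746). Between the arms 1 gene was called at day 5, Dmd (dystrophin), at 18.8 ± 3.41 CPM untreated and 42.9 ± 12.3 CPM with XAV939 (adjusted p = 0.00824), where 0.912% of all genes were called higher. With the block Sdc2 was also called higher at day 5 (edgeR adjusted p = 0.0381), where 2.93% of all genes were called higher. None was called at day 6, with 0 at an unadjusted p below 0.05 (15.7% of all genes), 0 by DESeq2 (5.73%) and 0 with the block (10.2%).

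Of 16 genes listed as integrin ligands other than laminins, 13 rose and 1 (Spp1, osteopontin) fell untreated, against 34.7% and 32.6% of all genes. With XAV939, 14 rose and 2 (Spp1 and Ccn1) fell, against 36.8% and 34.1%. Their median log2 change was 3.24 untreated and 2.89 with XAV939. Fn1 (fibronectin), the ligand of the Itga5 receptor, rose from 287 ± 56.5 to 928 ± 175 CPM untreated (adjusted p = 7.79e-06). Tgfb2, which encodes a TGF-beta, rose from 0.441 ± 0.201 to 101 ± 18.9 CPM (adjusted p = 3.38e-16). With XAV939 Fn1, Tgfb1 and Postn were lower at day 5 (Fn1 at 439 ± 123 against 964 ± 520 CPM, adjusted p = 0.0321), and Tnc, Ccn1 and Tgfb2 were lower at day 6 (Tnc at 1.11 ± 0.28 against 11.8 ± 12 CPM, adjusted p = 0.000171). Thbs1 (thrombospondin) was higher at both days, at 58.9 ± 23.6 against 13.8 ± 6.45 CPM at day 5 (adjusted p = 0.00125). Of all genes, 0.912% were called higher and 1.43% lower at day 5, and 1.39% and 2.95% at day 6. With the block Emilin1, Ltbp1 and Tgfb1 were also called lower at day 6, where 5.9% of all genes were called lower. Without the block and without untreated library 3 of day 6, 2 ligands were called lower at day 6. That fit called 2.58% of all genes in either direction.

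Of 25 adaptors that couple integrins to actin, 8 rose and 9 fell untreated and 8 rose and 8 fell with XAV939 (median log2 change 0.137 and 0.0157). Over all genes 34.7% rose and 32.6% fell untreated, and 36.8% and 34.1% with XAV939. Parva (alpha-parvin) rose from 23.9 ± 4.59 to 89.5 ± 15.4 CPM, while Ptk2b (the FAK-related kinase Pyk2) fell from 38.9 ± 7.08 to 4.54 ± 1.52 CPM and Vcl (vinculin) from 308 ± 33.4 to 171 ± 3.81 CPM untreated. Between the arms 1 adaptor was called, Parvb (beta-parvin), lower with XAV939 at day 6 at 22.4 ± 7.29 against 46.1 ± 15.1 CPM (adjusted p = 0.0441), where 2.95% of all genes were called lower. Without untreated library 3 of day 6 the count was 0, in a fit that called 2.58% of all genes in either direction. At day 5 none was called, with 4 at an unadjusted p below 0.05 (12.5% of all genes). DESeq2 called 1 (Parvb, against 3.64%) and the block 6 lower (against 4.41% lower). At day 6 the block called Fermt1, Parvg and Tns2 lower besides Parvb, where 5.9% of all genes were called lower.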

How the data were processed

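Gene counts were deposited by the authors as 1 table of raw counts for 26906 genes in 40 libraries, and the whole numbers were used as they stand. Per the labels' protocols, poly(A) RNA was extracted with Trizol and 300 ng went into stranded libraries, read as pairs of 81 bases. Per the submitters' processing notes, bcl2fastq 2.20.0 and the build mm10 were used; for aligner, counter, annotation and strand setting, nothing was given in the sources used here. Of the genes, 508 had 0 counts throughout. Totals of 30197759 to 44086019 counts per library set the precision, and spread between libraries adds to counting error.

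Groups were taken from the labels. Genes were filtered with filterByExpr (minimum count 10, minimum total 15), which left 16878, scaled by TMM and fitted in 1 quasi-likelihood model over the 10 groups with edgeR 4.0.16 (R 4.3.3, limma 3.58.1; 30 residual degrees of freedom), with Benjamini-Hochberg adjustment over all genes at 0.05. The procedure was tested on simulated data. Fold changes are given with SE, levels with SD over 4 libraries. Library numbers paired the arms: in each of 20 pairs of 1 day and 1 number the deviations from the group means correlated at 0.145 to 0.523, so a fit with the number as a block within day is given beside results it changes. In 60 pairs of libraries of 1 group none agreed within sampling noise (smallest chi-square per gene 8.14). Gene positions and summed exon lengths came from GENCODE (GRCm38), matched by ID for 26857 genes.

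Members and lists were chosen with earlier results of these data known. Values per library are given for the 12 genes Lama1, Lama5, Lamb1, Lamc1, Itga3, Itga5, Itga6, Itgav, Itgb1, Itgb3, Itgb5 and Itgb8 where results turn on them, for called members with the smallest adjusted p between the arms, for the 5 members highest per length, and for the largest rises and falls over time among called members of at least 5 CPM. One member of the families is not reported here; it stays in the counts of members. Genes of the pathway lists were named by smallest adjusted p. Alternatives were DESeq2 1.42.0, other scaling and filters, blocks, fewer libraries and other gene lengths.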

Additional observations from a re-analysis of the deposited data

Results flagged for a closer look

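A library was flagged where its gap to the nearest of the others was a larger part of the group's range than Dixon's critical value allows. Among 159 groups of 4 libraries in which a member reached 5 CPM, 10 held such a library. Chance gives about 1 in 20 such groups, so the count is near that share. The share over all genes is not given. At day 6 untreated library 3 was highest for Itgb5 (80.8 CPM, the others 48.8 to 53.9) and lowest for Lamc1 (59.8 CPM, the others 178 to 181), and it is the library with the length trend. Untreated library 1 of day 4 was highest for Itga8 (42.1 CPM, the others 3.57 to 6.73) and lowest for Itgb8 (3.37 CPM, the others 7.62 to 8.01). In untreated aggregates library 1 also stood apart for Itga9 at day 6 (71.7 CPM, the others 17.9 to 23.8) and for Lama5 at day 7 (44.2 CPM, the others 76.1 to 80.5), and library 3 of day 4 did for Lamb2 (15.5 CPM, the others 10.1 to 10.8). With XAV939, library 3 was highest for Itga1 at day 6 (5.4 CPM, the others 1.44 to 1.72), for Itga8 at day 6 (12.7 CPM, the others 6.68 to 7.35) and for Itga4 at day 7 (5.55 CPM, the others 4.89 to 5.0).

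Among members with a mean of at least 5 CPM, and leaving out the changes from day 3 or 5 to day 7, which were tested, 6 comparisons of days met a rule on pairs. How many comparisons were searched and what share of all genes meets the rule are not given. In each, every pair of libraries went one way on one day and the opposite way on the other, and these differences were not tested. The mean paired log2 difference of Itga6 (XAV939 minus untreated) was -0.113 at day 3 and 0.466 at day 6, a change of 0.579. Pair 3 of day 6, with the library of the length trend, held 148 against 73.9 CPM. The other pairs held 173, 236 and 216 against 147, 186 and 177 CPM. The remaining comparisons all concern Itgb5. That of Itgb5 was 0.113 at day 3, 0.204 at day 4, -0.725 at day 5, -0.809 at day 6 and -0.555 at day 7. The changes were -0.838 from day 3 to day 5, -0.922 from day 3 to day 6, -0.928 from day 4 to day 5, -1.01 from day 4 to day 6 and -0.759 from day 4 to day 7.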

How the results depend on the processing

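No fold change of the 149 examined reversed. Under alternatives other than leaving out 1 library, 1089 of 1156 values kept their call, 30 gained and 37 lost one; leaving out 1 library, 1098 of 1192 kept it, 6 gained and 88 lost it. The cause was not tested. Counts of members are given as higher or lower with XAV939. Percentages in brackets are shares of all genes called in either direction in the same fit. DESeq2 gave 1 lower at day 4 (0.352%) and 1 higher and 2 lower at day 5 (3.64%). It gave 1 higher and 5 lower at day 6 (5.73%), and 7 over all days (9.04%). The replicate block gave 1 higher and 4 lower at day 5 (7.35%) and 4 higher and 6 lower at day 6 (10.2%). It gave 4 lower at day 7 (2.26%) and 8 over all days (13.4%). Length offsets were chosen after seeing the data, like each setting on length. They gave 1 higher and 2 lower at day 5 (2.79%) and 1 higher and 5 lower at day 6 (4.65%). Length with the replicate block gave 2 higher and 6 lower at day 5 (8.53%) and 4 higher and 7 lower at day 6 (10.9%). It gave 5 lower at day 7 (2.7%) and 12 over all days (14.7%). The replicate block without the pair of library 3 of day 6 was also chosen afterwards. It gave 4 higher and 6 lower at day 6 (7.7%) and 13 over all days (16.0%). Size factors of DESeq2 in edgeR gave 2 lower at day 5 (2.38%) and 4 at day 6 (4.34%). No filter gave 0 lower at day 5 (1.11%) and 3 at day 6 (2.28%). Fitting the compared groups only gave 0 lower at day 5 and 0 at day 6, and ended each call between the arms (Lamb1 adjusted p = 0.189 at day 5 and 0.109 at day 6, Lamb3 0.138 and Itgb5 0.175 at day 6). Without untreated library 1 of days 4 and 5 and library 3 of day 6 there were 2 higher and 0 lower at day 5 (2.25%) and 4 lower at day 6 (3.44%). A 5 CPM filter left 20 members, with 1 lower at day 5 and 2 lower at day 6. Between days 3 and 7, 11 rose and 4 fell untreated, and 8 and 5 with XAV939. Between days 3 and 5, 6 rose and 6 fell untreated, and 6 and 8 with XAV939. Between days 5 and 7, 9 rose and 3 fell untreated, and 8 and 3 with XAV939. Under that filter 2.21% of all genes were called between the arms at day 5 and 3.6% at day 6. From day 3 to 7 it was 66.6% untreated and 70.4% with XAV939. From day 3 to 5 it was 52.0% and 58.5%, and from day 5 to 7 35.2% and 35.4%. Leaving out 1 library gave 0 to 1 lower at day 4 (0.0% to 0.322%) and 0 to 1 higher and 0 to 3 lower at day 5 (0.486% to 2.63%). It gave 0 to 1 higher and 1 to 5 lower at day 6 (1.94% to 6.85%). Over all days it gave 2 to 6, for which the share of all genes is not given. With the length of the longest transcript the mean Lamb1 share was 94.6% at day 3 and 84.5% at day 7 untreated and 95.0% and 76.2% with XAV939, and the Lamc1 share at day 3 was 92.6% untreated and 92.7% with XAV939.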
